A study of Homo sapiens with 12 samples.

Results

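The genes examined were 52 genes of mitosis and the G2/M transition, taken by symbol from the 58735 genes of an RNA sequencing table of 2 human ovarian tumour cell lines. All 52 were found, each with a single entry. The study treated KGN and COV434 cells with 77-39, an inhibitor of the mitochondrial deacetylase SIRT3, and sequenced 12 libraries, 3 for each combination of line and treatment. The 4 groups were untreated KGN, KGN with 77-39, untreated COV434 and COV434 with 77-39, all of wild-type genotype and grown in DMEM/F-12 with serum. The labels give an exposure of 72 h and an amount of 10 with its unit written as μm/ml, which cannot be read as a concentration, and they name no vehicle for the untreated cells. KGN is known as a line from an adult-type granulosa cell tumour. COV434 was long used as a juvenile-type granulosa cell tumour line and has since been assigned to a rare small cell carcinoma of the ovary. Nothing in the labels says that the 3 libraries of a group came from separate cultures, so the p-values measure the spread between these libraries, which may be technical.

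Entry into mitosis is driven by cyclin B bound to the kinase CDK1, which the CDC25 phosphatases switch on and which the kinases PLK1 and Aurora A promote. Condensin then compacts the chromosomes, motor proteins build the spindle, kinetochores bind its microtubules, and the spindle checkpoint holds the anaphase-promoting complex (APC/C) inactive until every chromosome is attached. Most of these genes are transcribed late in the cell cycle, when MYBL2 and FOXM1 act with the MuvB complex, and in resting cells many of them are kept silent by the related DREAM complex. Their transcript levels are therefore widely used as a readout of how many cells in a culture are dividing.

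The libraries held 15547851 to 18280415 reads on genes, with 46756 to 100698 on the 52 genes. Mitochondrially encoded genes took between 7.3% and 8.81% of the reads under the KGN label and between 7.71% and 13.51% under the COV434 label. The markers of the lines went against both labels. FOXL2, the granulosa cell transcription factor that KGN is known to express, totalled 2 reads over the 6 libraries with the KGN label, while it measured 12.4 ± 0.786 FPKM (SD, n = 3) in untreated libraries labelled COV434. SMARCA2, a chromatin remodelling ATPase that COV434 is known to lack, had 13 reads in the 6 libraries labelled KGN and measured 5.65 ± 0.717 FPKM (SD, n = 3) in the untreated libraries labelled COV434. SMARCA4, the other such ATPase known to be lost in COV434, measured 2.58 ± 0.0210 FPKM under the KGN label and 9.22 ± 3.13 FPKM under the COV434 label (SD, n = 3). Of 10 granulosa cell markers, 2 averaged 1 FPKM or more under the KGN label and 3 under the COV434 label, and their sum was 5.37 to 6.25 FPKM in the former and 21.4 to 26.3 FPKM in the latter. FSHR had 0 reads in all 12 libraries, where 3 reads on a gene of 1 kb would have given 0.152 to 0.200 FPKM. Groups are therefore named below by the label of the library, and any direction between the lines is one between labels. SIRT3 itself measured 4.22, 4.35 and 4.30 FPKM in untreated and 3.63, 3.94 and 4.55 FPKM in treated libraries labelled KGN, a difference of -0.07 on the log2 scale (SE 0.0736, adjusted p = 0.475, limma). In COV434 its difference was 0.15 (SE 0.171, adjusted p = 0.929, limma).

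Under the KGN label, 49 of the 51 genes that could be tested fell with 77-39 and 0 rose. Each line was tested alone with limma on log2-transformed FPKM with 1 added, genes averaging under 1 FPKM were left out, and a gene was called at an adjusted p under 0.05 over all genes tested. By the same test 16.4% of the 12671 genes tested fell and 17.6% rose. The median log2 fold change over the 51 genes was -0.64, 0.641 times the untreated level on that scale, with quartiles of -0.74 and -0.49 and the extremes at -1.16 and -0.14. Over all genes tested the median was 0.01. All 51 estimates were below 0, against 48.4% of all genes tested, and in 49 genes the 3 treated libraries lay below the 3 untreated ones without overlap, against 23.4%. Together the 52 genes summed to 1059 to 1077 FPKM without 77-39 under the KGN label and to 667 to 705 FPKM with it, which is 0.502% to 0.519% and 0.330% to 0.340% of the reads on nuclear genes. In bulk RNA, fewer cells in G2 and M and less RNA of these genes per cell cannot be told apart. Of the 49 calls, 46 also stood in every alternative setting other than a joint fit of both lines. In that joint fit of all 12 libraries, where the wider spread of COV434 is shared, 25 of the calls were lost and 24 were kept. It called 569 of all 13127 genes tested lower under the KGN label.

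**Figure D1:**
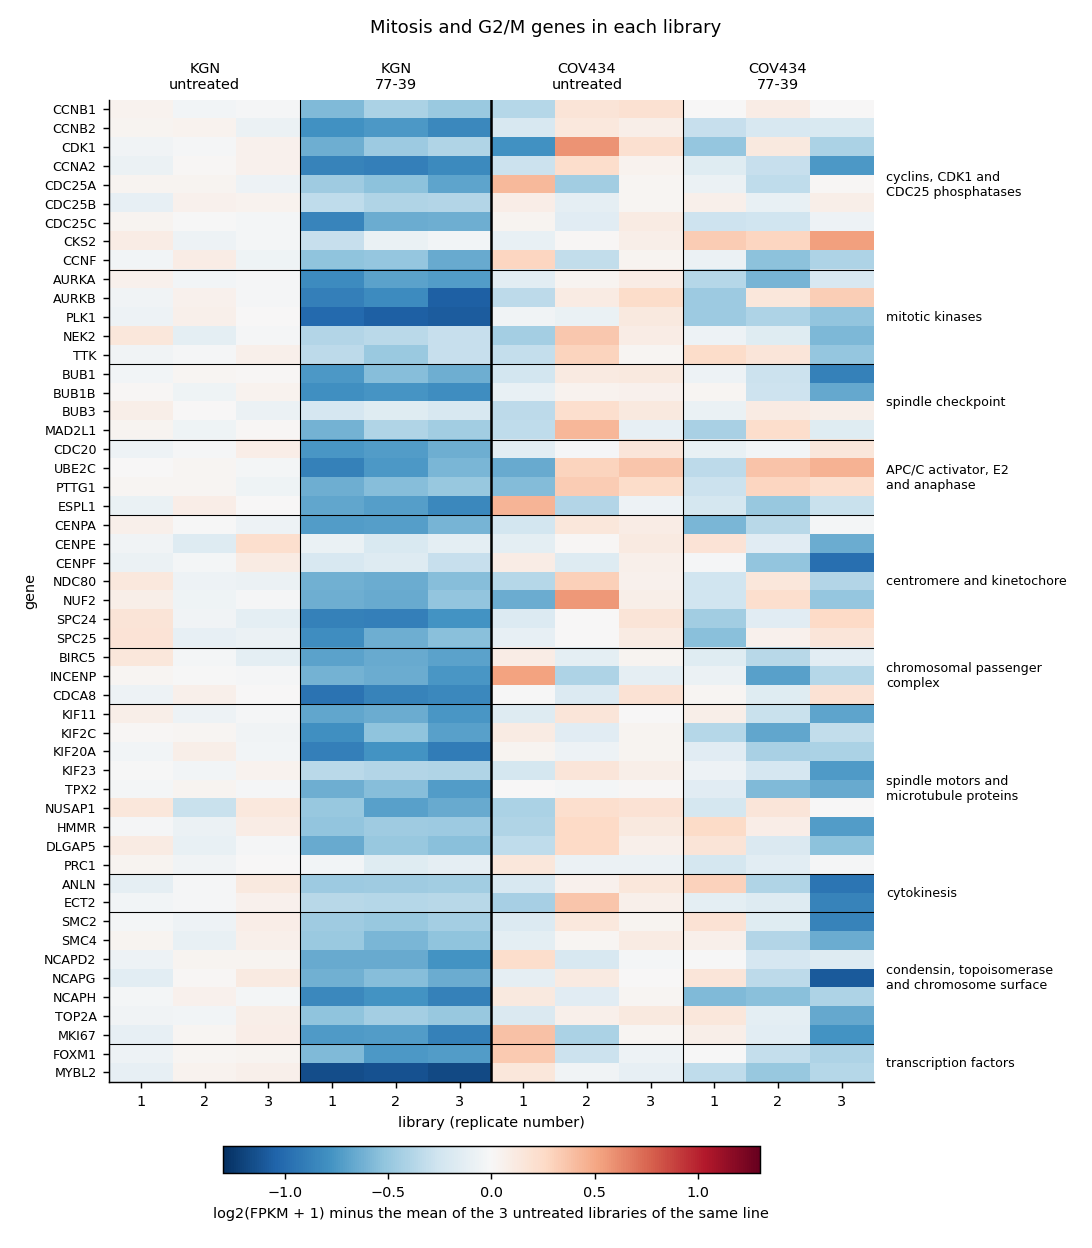
Heat map of the 52 genes (rows, grouped by role) in the 12 libraries (columns, 3 replicates for each line label and treatment). Colour gives log2(FPKM + 1) minus the mean of the 3 untreated libraries of the same line, blue for lower and red for higher. The 3 treated KGN columns are blue in nearly every row, with library medians of -0.64 to -0.61, while the COV434 columns differ among themselves in both groups.

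Among the cyclins, CDK1 and its CDC25 activators, 8 of 9 genes fell under the KGN label, with a median of -0.56. CCNA2 encodes cyclin A2, which acts in S phase and in G2. It measured 26.0, 27.7 and 28.5 FPKM in the untreated libraries labelled KGN and 14.5, 14.3 and 14.99 FPKM with 77-39, and fell by 0.86 on the log2 scale (SE 0.0486, adjusted p = 0.000172, limma). The treated values were close to one another and well below the lowest untreated one. CCNB2, one of the B-type cyclins that activate CDK1, went from 19.1, 19.2 and 17.5 to 10.3, 10.7 and 9.97 FPKM and fell by 0.79 (SE 0.0523, adjusted p = 0.000243, limma). CCNB1, the main mitotic cyclin, started higher and fell less, from 50.1, 47.2 and 47.9 to 32.2, 36.2 and 34.3 FPKM, a log2 fold change of -0.49 (SE 0.0551, adjusted p = 0.00127, limma). CDK1, the kinase that these cyclins activate, had the highest level of the 52 genes in this line both with and without 77-39. Its 95.6, 97.5 and 102 FPKM without the inhibitor stood against 63.0, 70.7 and 74.8 FPKM with it, and it fell by 0.50 (SE 0.0703, adjusted p = 0.00274, limma). No treated value of any of these genes reached an untreated one.

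The CDC25 phosphatases remove the inhibitory phosphates from CDK1. CDC25C measured 5.07, 4.91 and 4.83 FPKM without and 2.28, 2.81 and 2.83 FPKM with 77-39 in the libraries labelled KGN, and fell by 0.71 (SE 0.0739, adjusted p = 0.000965, limma). CDC25A, which also acts at the start of S phase, went from 8.18, 8.22 and 7.55 to 5.52, 5.21 and 4.58 FPKM, a log2 fold change of -0.56 (SE 0.0696, adjusted p = 0.00178, limma). The third, CDC25B, moved least, from 16.4, 18.4 and 18.3 to 13.9, 13.2 and 13.4 FPKM, a fall of 0.37 (SE 0.0558, adjusted p = 0.00362, limma). All 3 phosphatase genes thus fell without overlap between the groups. CCNF, an F-box protein that targets substrates for destruction in G2, fell by 0.56 (SE 0.0673, adjusted p = 0.00157, limma). CKS2, a small subunit bound to CDK1, was the one gene of this set that was not called. It measured 77.3, 68.9 and 70.8 FPKM untreated and 58.3, 68.0 and 70.3 FPKM treated, so the groups overlapped, and its log2 difference was -0.14 (95% interval -0.34 to 0.05, adjusted p = 0.214, limma).

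All 5 mitotic kinase genes fell under the KGN label, with a median of -0.75. PLK1, which acts from mitotic entry to cytokinesis, had the smallest p of the 51 genes. Its values were 17.97, 19.9 and 19.0 FPKM untreated and 8.89, 8.52 and 8.42 FPKM treated, and it fell by 1.05 on the log2 scale (SE 0.0509, adjusted p = 0.000119, limma). On the scale of FPKM the treated mean was 0.455 times the untreated mean. AURKB, the kinase of the chromosomal passenger complex, went from 26.4, 28.4 and 27.0 to 14.3, 15.04 and 12.5 FPKM and fell by 0.92 (SE 0.0709, adjusted p = 0.000375, limma). AURKA, which matures centrosomes and activates PLK1, went from 18.4, 17.1 and 17.4 to 9.54, 10.5 and 10.2 FPKM and fell by 0.75 (SE 0.0517, adjusted p = 0.000272, limma). No treated value of these 3 kinases reached an untreated one. TTK, the checkpoint kinase also called MPS1, and NEK2, a centrosome kinase, moved less, with log2 fold changes of -0.37 (SE 0.0656, adjusted p = 0.00614, limma) and -0.34 (SE 0.0747, adjusted p = 0.0136, limma).

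The spindle checkpoint genes all fell, 4 of 4, with a median of -0.56. BUB1B, whose product BUBR1 is part of the complex that blocks the APC/C, went from 15.1, 14.3 and 15.5 to 8.20, 8.38 and 8.14 FPKM under the KGN label and fell by 0.79 (SE 0.0452, adjusted p = 0.000176, limma). BUB1, a kinase that places other checkpoint proteins at the kinetochore, went from 10.5, 11.0 and 10.9 to 6.06, 7.08 and 6.61 FPKM, a log2 fold change of -0.64 (SE 0.0595, adjusted p = 0.000672, limma). MAD2L1, the protein that holds the APC/C activator, fell by 0.49 (SE 0.0671, adjusted p = 0.00257, limma). The last of the set, BUB3, binds both BUB1 and BUBR1. It changed little, from 15.1, 14.4 and 13.5 to 12.1, 12.8 and 12.3 FPKM, a log2 fold change of -0.20 (SE 0.0523, adjusted p = 0.0276, limma), and it was called in 10 of 19 alternative settings only. Without any one of 5 of the 6 libraries labelled KGN, its adjusted p was over 0.05.

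The 4 genes that drive and carry out anaphase fell as well, with a median of -0.72. CDC20, the activator of the APC/C, measured 33.3, 34.3 and 37.0 FPKM untreated and 20.1, 20.7 and 22.0 FPKM treated in the libraries labelled KGN. It fell by 0.71 (SE 0.0566, adjusted p = 0.000419, limma). UBE2C, the ubiquitin-conjugating enzyme that works with the APC/C, fell by 0.74 (SE 0.0720, adjusted p = 0.000758, limma) and was the third highest of the 52 genes in untreated KGN. ESPL1, the separase that cuts cohesin, and PTTG1, the securin that holds it back until anaphase, fell by 0.74 and 0.56 (SE 0.0662 and 0.0521).

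At the centromere and kinetochore 6 of 7 genes fell, with a median of -0.61. SPC24, part of the NDC80 complex that grips microtubules, led them with a log2 fold change of -0.85 (SE 0.0812, adjusted p = 0.000738, limma). Its partners SPC25, NDC80 and NUF2 fell by 0.66, 0.61 and 0.60. CENPA, the histone variant that marks centromeres, fell by 0.68 (SE 0.0558, adjusted p = 0.000436, limma). The large genes of the outer kinetochore moved least. CENPF went from 13.5, 14.1 and 15.5 to 12.3, 12.7 and 11.5 FPKM, a log2 fold change of -0.22 (SE 0.0646, adjusted p = 0.0354, limma), and was called in 9 of 19 alternative settings. Without any one of 5 of the 6 libraries labelled KGN, CENPF too had an adjusted p over 0.05. CENPE, a kinesin that carries chromosomes to the spindle equator, measured 3.79, 3.403 and 4.76 FPKM untreated and 3.65, 3.31 and 3.54 FPKM treated. The groups overlapped, and its log2 difference was -0.14 (95% interval -0.38 to 0.10, adjusted p = 0.328, limma). Once the trend with GC content was removed, CENPE was called too, and it was not called in the other 17 settings.

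The chromosomal passenger complex brings Aurora B to the chromosomes and then to the spindle midzone. Its 3 subunits other than the kinase all fell under the KGN label. CDCA8, which encodes borealin, measured 22.9, 25.03 and 24.0 FPKM untreated and 11.8, 12.6 and 12.9 FPKM treated, and fell by 0.89 (SE 0.0535, adjusted p = 0.000183, limma). BIRC5, or survivin, and INCENP, the scaffold, fell by 0.68 and 0.67 (SE 0.0715 and 0.0501). The groups of all 3 genes stood apart without overlap.

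Of the 8 tested genes for spindle motors and microtubule proteins, 8 fell, with a median of -0.63. KIF20A, a kinesin of the spindle midzone, went from 19.99, 21.7 and 19.96 to 10.6, 11.6 and 10.5 FPKM and fell by 0.86 (SE 0.0574, adjusted p = 0.000247, limma). KIF2C, which depolymerizes microtubules at kinetochores, went from 23.3, 23.5 and 22.2 to 12.8, 15.7 and 13.7 FPKM, a log2 fold change of -0.68 (SE 0.0748, adjusted p = 0.00119, limma). TPX2, which activates Aurora A on the spindle, went from 47.3, 49.7 and 47.9 to 30.7, 32.5 and 28.7 FPKM and fell by 0.64 (SE 0.0552, adjusted p = 0.000528, limma). In each of the 3 the groups were far apart relative to their spread. KIF11, the motor that separates the spindle poles, fell by 0.69, NUSAP1 by 0.62, DLGAP5 by 0.56, HMMR by 0.48 and KIF23, a motor needed for cytokinesis, by 0.37. PRC1, which bundles midzone microtubules, was at 0.257 to 0.439 FPKM under the KGN label and at 0.230 to 0.601 FPKM under the COV434 label, on 19 to 55 reads, and was below the level tested in both lines. The model of PRC1 shares 57.6% of its exon bases on the same strand with AC068831.7, and that of NUSAP1 shares 62.2% with AC087721.2. How reads on shared exons were counted is not given in the sources used here, so the levels of both genes are uncertain. AC068831.7 was at 1.502, 1.47 and 1.79 FPKM untreated and 1.03, 0.897 and 0.887 FPKM treated under the KGN label, while AC087721.2 was listed at 0 in every library. The 2 cytokinesis genes fell less than most others, ANLN by 0.46 (SE 0.0656) and ECT2 by 0.36 (SE 0.0430).

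All 7 genes for condensin, topoisomerase and the chromosome surface fell, with a median of -0.60. NCAPH, the subunit that closes the condensin I ring, went from 12.2, 13.0 and 12.2 to 6.52, 6.86 and 6.33 FPKM and fell by 0.83 (SE 0.0493, adjusted p = 0.000177, limma). MKI67, whose product Ki-67 coats mitotic chromosomes and is the usual stain for dividing cells, went from 19.8, 21.8 and 22.8 to 12.4, 12.6 and 11.2 FPKM, a log2 fold change of -0.78 (SE 0.0683, adjusted p = 0.000566, limma). TOP2A, the topoisomerase that untangles sister chromatids, went from 48.8, 49.2 and 53.1 to 34.8, 36.7 and 35.4 FPKM and fell by 0.49 (SE 0.0496, adjusted p = 0.000892, limma). NCAPD2 and NCAPG, the other condensin I subunits of the list, fell by 0.69 and 0.60. The ATPases SMC4 and SMC2, which condensin I and II share, fell by 0.53 and 0.47. The models of NCAPG and SMC4 overlap genes on the opposite strand over 33.1% and 25.6% of their exon bases, and whether the counting used strand is not given in the sources used here.

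Both transcription factors of the list fell. MYBL2, also called B-Myb, had the largest fall of the 51 genes under the KGN label. It measured 30.5, 34.1 and 34.5 FPKM untreated and 14.2, 14.5 and 14.02 FPKM treated, and fell by 1.16 on the log2 scale (SE 0.0566, adjusted p = 0.000119, limma), with a treated mean 0.431 times the untreated mean. FOXM1 went from 14.9, 15.8 and 16.04 to 10.2, 8.91 and 9.03 FPKM and fell by 0.68 (SE 0.0608, adjusted p = 0.000597, limma).

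The promoters of these genes were read from RefSeq on GRCh38.p14, where 45 of the 52 had an entry. The first 20 bases after the RefSeq start were found in an annotated transcript of the gene for 40 of the 45. The cell cycle genes homology region (CHR) is the element through which MuvB complexes are known to bind such promoters, and it was searched as TTTGAA or TTTAAA on both strands. In the 250 bases before the start it matched in 30 of the 45, or 66.7%, against 22.1% of all 27305 promoters in the table. Within 100 bases the shares were 51.1% and 8.33%. The CCAAT box, bound by NF-Y and searched as CCAAT on both strands, matched in 73.3% of the 45 against 33% of all promoters. The E2F site, searched as TTCCCGC or TTGGCGC or TTCGCGC or TTGCCGC, matched in 24.4% against 11%, and the TATA box (TATAAA) in 4.44% against 11.1%, again on both strands. The sequences below are those of the 4 genes with the smallest p under the KGN label among those with a CHR match within 100 bases of the start. Each is the stretch of 100 bases before the RefSeq start, 5′ to 3′ along the gene, with CHR matches in capitals.
PLK1: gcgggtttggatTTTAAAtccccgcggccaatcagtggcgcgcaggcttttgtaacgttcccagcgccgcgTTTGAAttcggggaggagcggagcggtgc
BUB1B: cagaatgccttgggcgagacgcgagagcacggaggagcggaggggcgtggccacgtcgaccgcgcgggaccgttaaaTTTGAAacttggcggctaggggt
CDCA8: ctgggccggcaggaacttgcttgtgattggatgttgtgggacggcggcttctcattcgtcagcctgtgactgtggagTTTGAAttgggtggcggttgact
CCNB2: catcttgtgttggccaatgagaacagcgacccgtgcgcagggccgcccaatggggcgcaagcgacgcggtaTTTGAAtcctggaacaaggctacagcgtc

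They lie at chr16:23678789-23678888, chr15:40160969-40161068, chr1:37692416-37692515 and chr15:59105046-59105145, all on the plus strand. The gene models used for FPKM begin upstream of these RefSeq starts, so each stretch overlaps the model of its gene. That of PLK1 lies wholly inside its model, which begins at chr16:23677656. The matches nearest to the start began 29, 23, 23 and 29 bases before it in PLK1, BUB1B, CDCA8 and CCNB2. The nearest CCAAT match stood 73 and 54 bases before the start in PLK1 and CCNB2, further upstream than the CHR match. In CDCA8 it began 18 bases before the start as ATTGG and shared 1 base with the CHR match, and BUB1B had none in 250 bases. The other 2 promoters shown belong to called genes with no CHR match in 250 bases, MYBL2 and CCNA2, with CCAAT matches in capitals. Each is 250 bases long, since a shorter stretch would not show the absence of a match.
MYBL2: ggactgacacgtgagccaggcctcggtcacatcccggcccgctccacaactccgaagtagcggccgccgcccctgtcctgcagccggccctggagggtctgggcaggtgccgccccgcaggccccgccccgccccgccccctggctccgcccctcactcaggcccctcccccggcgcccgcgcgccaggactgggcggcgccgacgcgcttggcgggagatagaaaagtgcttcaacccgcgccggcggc
CCNA2: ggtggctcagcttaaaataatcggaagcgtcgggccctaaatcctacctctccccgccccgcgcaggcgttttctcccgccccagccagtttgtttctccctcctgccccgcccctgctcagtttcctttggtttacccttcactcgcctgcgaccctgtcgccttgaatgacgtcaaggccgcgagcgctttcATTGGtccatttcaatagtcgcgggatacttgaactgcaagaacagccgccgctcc

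They lie at chr20:43666864-43667113 on the plus strand and chr4:121823884-121824133 on the minus strand. These stretches, too, overlap the models of their genes. MYBL2 had no CCAAT match in this window either, and CCNA2 had 1, written ATTGG along the gene. A match is a run of letters and not a measured site, and a missing match says nothing of a spelling outside the search. The responses of genes with and without a match overlapped. The median log2 fold change under the KGN label was -0.60 over the 29 tested genes with a CHR match and -0.64 over the 15 without, and both groups spanned large and small falls, from -1.05 to -0.14 and from -1.16 to -0.34.

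Under the COV434 label, 0 of 51 genes passed the adjusted threshold in either direction, where 0.0332% of the 12060 genes tested fell and 0.00829% rose. At an unadjusted p under 0.05, the rule the study used for differential expression, 6 genes were lower and 1 was higher, against 4.49% and 3.52% of all genes tested. The estimates leaned downwards: 43 of 51 were below 0, against 53.5% of all genes tested, and the median was -0.24 against -0.02. In 8 genes the treated libraries lay below the untreated ones without overlap and in 1 above them, against 8.16% and 6.23%. The libraries of this line spread far more. The median SE of the 51 log2 fold changes was 0.208, against 0.0593 under the KGN label, and the median coefficient of variation of FPKM was 14.4% in untreated and 21.5% in treated libraries, against 5.03% and 5.28%. The main fit used no replicate block, although same-numbered libraries of this line deviated together for numbers 1 and 2 (r = 0.40 and 0.474). For number 3 r was 0.166, near the 0.154 of untreated replicate 3 with treated replicate 2. With the replicate number as a block, 11 genes were lower and 1 higher at an unadjusted p under 0.05. Of all genes tested, 7.57% and 6.85% were. Still 0 of the 51 passed the adjusted threshold.

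**Figure D2:**
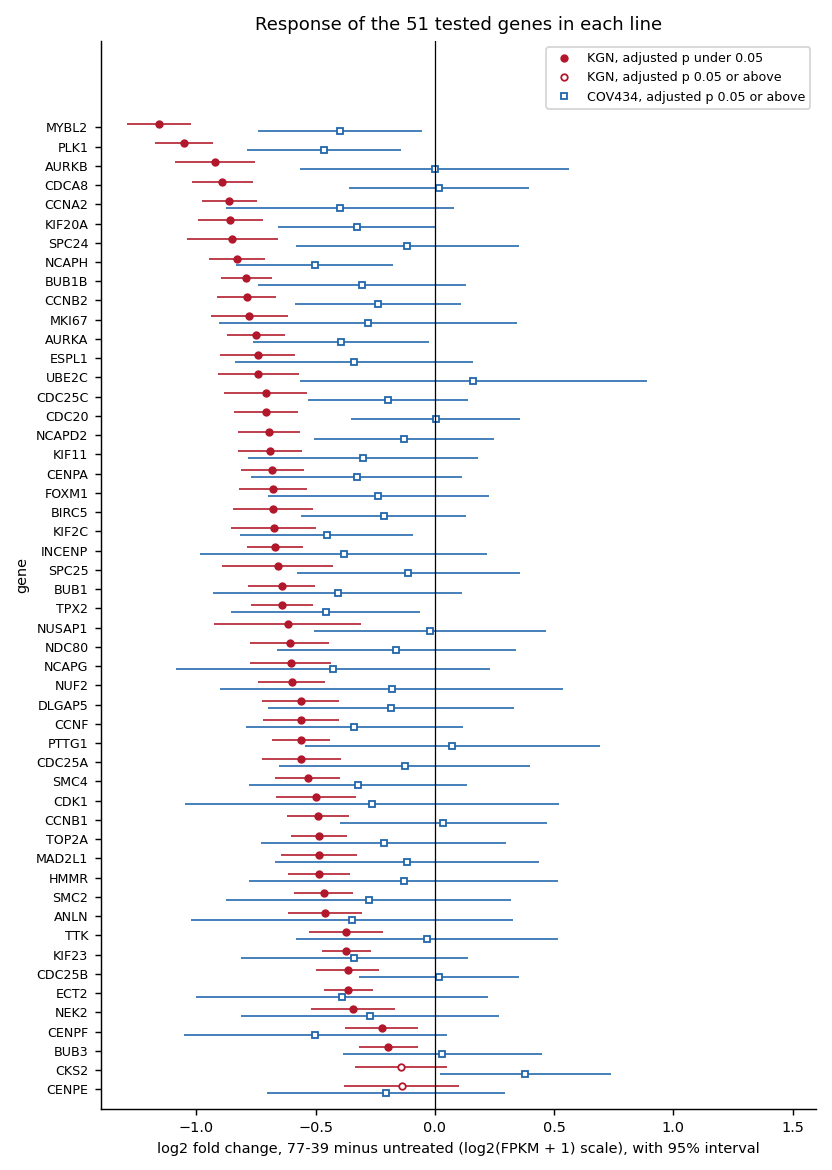
Log2 fold changes (77-39 minus untreated, on the log2(FPKM + 1) scale) of the 51 tested genes, with 95% intervals as lines, circles for KGN and squares for COV434, filled where the adjusted p was under 0.05. All 51 circles lie left of 0 and 49 are filled, while no square is filled and most intervals of COV434 cross 0.

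The 6 genes that were lower at an unadjusted p under 0.05 under the COV434 label came from several roles. NCAPH measured 21.4, 17.5 and 19.9 FPKM untreated and 12.8, 13.1 and 14.5 FPKM treated, a log2 difference of -0.50 (SE 0.144, adjusted p = 0.322, limma). PLK1 measured 36.3, 35.1 and 41.0 FPKM untreated and 26.7, 28.0 and 25.8 FPKM treated, a difference of -0.46 (SE 0.140, adjusted p = 0.366, limma). In both genes the groups stood apart. KIF2C followed with 29.5, 24.7 and 28.1 against 21.0, 16.8 and 21.7 FPKM, a difference of -0.45 (SE 0.158, adjusted p = 0.460, limma). TPX2 had 64.6, 63.1 and 65.2 FPKM untreated and a scattered 57.8, 42.9 and 40.5 FPKM treated, a difference of -0.46 (SE 0.173, adjusted p = 0.514, limma). MYBL2 stood at 80.5, 70.2 and 67.4 against 57.5, 51.1 and 55.8 FPKM (-0.40, SE 0.150, adjusted p = 0.509, limma). AURKA stood at 35.1, 39.7 and 41.3 against 29.7, 25.1 and 33.2 FPKM (-0.39, SE 0.160, adjusted p = 0.578, limma). No treated value of these 6 genes reached an untreated one, and the same held for KIF20A, with 17.4, 16.2 and 17.5 against 15.2, 12.5 and 12.5 FPKM, and for BIRC5. When both lines were fitted together, NCAPH, PLK1 and MYBL2 were called lower in COV434 with the same estimates. That fit shares the narrower spread of KGN. Under the COV434 label it called 257 lower and 223 higher of all 13127 genes tested, where the line's own fit called 4 and 1 of 12060.

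CKS2, which with CENPE was not called under the KGN label, was the one gene higher at an unadjusted p under 0.05 here. It measured 122, 132 and 138 FPKM untreated and 164, 159 and 189 FPKM treated under the COV434 label, so that every treated library was above every untreated one. Its log2 difference was 0.38 (SE 0.157, 95% interval 0.02 to 0.74, unadjusted p = 0.0411, adjusted p = 0.591, limma). CKS2 has the shortest model of the 52 genes, 613 bases. No other gene was higher without overlap.

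Several genes with clear falls under the KGN label sat at the same mean with and without 77-39 under the COV434 label. CDC20 had 47.3, 51.4 and 58.3 FPKM untreated and 48.8, 50.7 and 57.6 FPKM treated, with a 95% interval for the log2 difference of -0.35 to 0.36. CDCA8 had 25.8, 22.7 and 29.6 against 26.4, 23.0 and 29.5 FPKM, with an interval of -0.36 to 0.40. Same-numbered libraries of both genes nearly coincide. CDC25B had 63.9, 55.3 and 61.3 against 63.0, 56.3 and 63.3 FPKM, with an interval of -0.32 to 0.35. CCNB1 had 51, 74.6 and 76.2 against 66.4, 71.0 and 66.2 FPKM and AURKB 22.6, 31.2 and 34.1 against 20.5, 32.1 and 36.3 FPKM, with intervals of -0.40 to 0.47 and -0.57 to 0.56. These intervals leave room for differences of either sign.

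Other genes spread widely within a group. CDK1 ran from 16.4 through 33.7 to 43.9 FPKM in the untreated libraries, and its treated values of 20.2, 31.7 and 21.6 FPKM lay inside that range. CENPF was at 27.5, 22.8 and 27.0 FPKM untreated and at 25.5, 17.7 and 12.6 FPKM treated, and CCNA2 at 21.5, 31.2 and 27.3 against 23.6, 21.3 and 15.3 FPKM. The lowest treated value of both was that of replicate 3. MKI67 (33.3, 18.9 and 25.9 against 26.8, 23.0 and 14.4 FPKM) and TOP2A (35.7, 42.7 and 44.6 against 45.4, 37.3 and 25.3 FPKM) showed the same low treated replicate 3. BUB1 and BUB1B did so too, at 11.4, 9.71 and 6.05 FPKM and at 9.07, 7.23 and 5.25 FPKM in the treated libraries, against 9.97 to 13.2 and 8.29 to 9.28 FPKM untreated. CCNB2 (24.8, 31.7 and 30.4 against 23.2, 24.8 and 24.9 FPKM), FOXM1 (53.8, 34.6 and 40.1 against 42.0, 33.9 and 31.7 FPKM), CDC25A (19.4, 10.1 and 14.5 against 13.4, 11.1 and 14.4 FPKM) and CDC25C (4.61, 3.93 and 4.89 against 3.54, 3.56 and 4.22 FPKM) all overlapped between the groups.

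**Figure D3:**
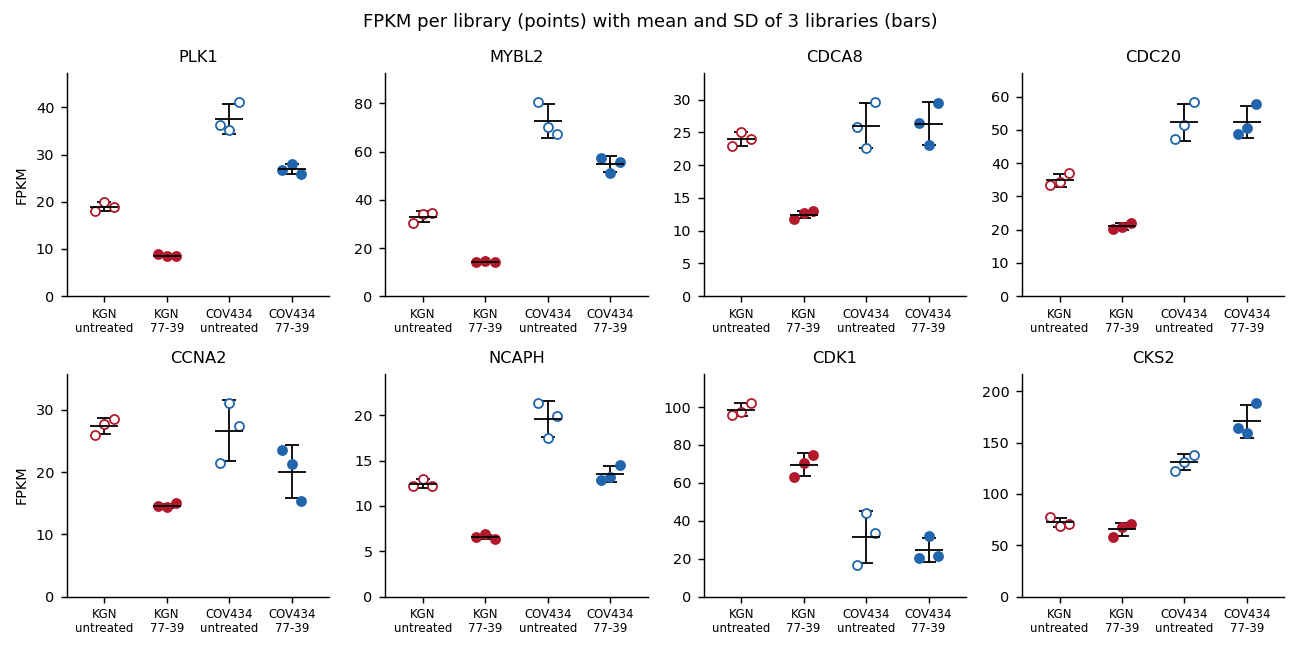
FPKM of 8 genes in each library (points, red for KGN, blue for COV434, open for untreated, filled for 77-39) with the mean and SD of 3 libraries as bars, each panel on its own axis from 0. PLK1 and MYBL2 are lower with 77-39 under both labels, CDCA8 and CDC20 are lower under the KGN label with nearly level COV434 means, and CKS2 is higher in the treated COV434 libraries. None of the COV434 differences passed the adjusted threshold.

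Set against the untreated mean of its line, the median over the 52 genes was -0.09, -0.20 and -0.39 on the log2 scale in treated COV434 replicates 1, 2 and 3, and -0.64, -0.61 and -0.63 in the treated KGN libraries. Of all 52 genes, 36, 38 and 39 were below the untreated mean in those COV434 libraries, while all 52 were in each treated KGN library. Deviations of single libraries from their group mean also went with gene length and GC content, under both labels. Across the 52 genes, the deviation of treated COV434 replicate 1 from its group mean rose with log2 gene length (Pearson r = 0.61) and that of replicate 3 went the other way (r = -0.59), as a description over genes that share each library. Over all genes the same correlations were 0.27 and -0.24. Treated KGN replicates 1 and 3 had like correlations over the 52 genes, 0.51 and -0.52, on smaller deviations: the median absolute deviation was 0.0384 and 0.0455 in those libraries and 0.250 and 0.188 in the COV434 ones, on the log2 scale. The 2 longest genes, MKI67 and CENPF, were high in treated COV434 replicate 1 and low in replicate 3 and the short UBE2C was the reverse, but BUB3, also long, was at 20.5, 23.6 and 23.1 FPKM in the 3 treated libraries. With GC content, r was 0.58 and -0.64 in untreated COV434 replicates 1 and 2 and -0.59 and 0.64 in treated replicates 2 and 3, where it was 0.24, -0.25, -0.09 and 0.25 over all genes. In untreated KGN replicate 2 it was 0.57, and 0.14 over all genes. Mitochondrial transcripts took 13.51% of reads in treated replicate 1, the largest share of any library. The part of length, GC content and mitochondrial share in the differences under this label was not tested beyond the refits that follow. With the length trend removed from each library, 9 genes were lower at an unadjusted p under 0.05. It was 7 with the GC trend removed, 17 with the GC trend removed and the replicate block, and 6 without mitochondrial genes in the scaling. In each of these refits 0 passed the adjusted threshold. Single libraries moved the main count of 6 widely: it was 1 without untreated replicate 3, 2 without treated replicate 2, 10 without untreated replicate 1 and 14 without treated replicate 1. The matching shares of all genes at this unadjusted threshold were not computed for these refits or for the libraries left out. Whether the counts moved more than those of all genes is therefore not known. With the replicate block alone, the share of all genes that were lower went from 4.49% to 7.57%.

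**Figure D4:**
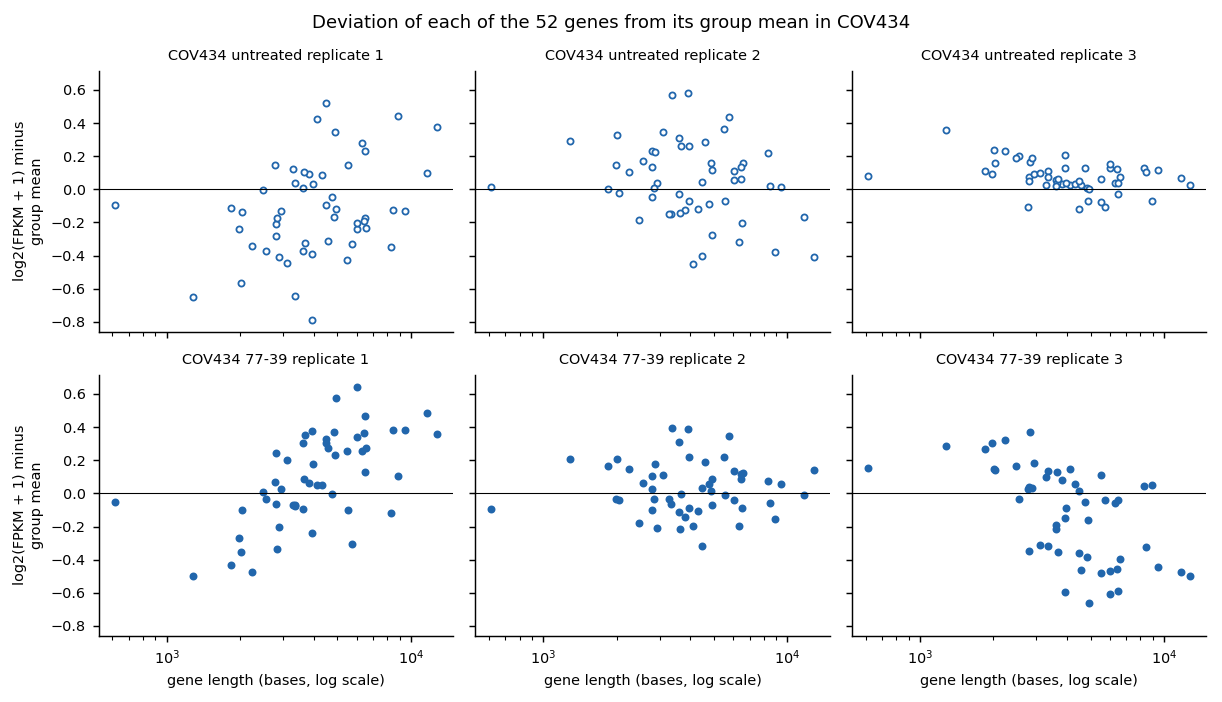
Deviation of each of the 52 genes from its group mean (vertical axis, log2(FPKM + 1)) against gene length (horizontal axis, bases, log scale) in the 6 libraries labelled COV434, untreated above and treated below. Points climb with length in treated replicate 1 and descend in treated replicate 3, with r of 0.61 and -0.59.

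Whether the response itself differed between the labels was tested as the interaction of line and treatment over all 12 libraries. It was lower under the KGN label at an adjusted p under 0.05 for 4 of 51 genes and higher for 0, against 1.74% and 1.85% of the 13127 genes tested. The 4 were MYBL2 (difference of the 2 log2 fold changes -0.76, SE 0.133, adjusted p = 0.0150, limma), CDCA8 (-0.91, SE 0.161, adjusted p = 0.0154), PLK1 (-0.59, SE 0.119, adjusted p = 0.0242) and CDC20 (-0.71, SE 0.144, adjusted p = 0.0245). KIF20A and CCNB2 came next, at -0.53 (SE 0.132, adjusted p = 0.0524, limma) and -0.55 (SE 0.138, adjusted p = 0.0540, limma). These SEs rest on a spread shared between the lines, so they borrow the narrower spread of KGN. For MYBL2 and PLK1 the SE was below that of the response under the COV434 label alone. The gene models lie on the plus strand of GRCh38, MYBL2 at chr20:43667019-43716496, CDCA8 at chr1:37692418-37709719, PLK1 at chr16:23677656-23690367 and CDC20 at chr1:43358955-43363203. Of the 4, CDCA8 and CDC20 had COV434 estimates near 0, while MYBL2 and PLK1 had negative estimates under both labels. None of them was called under the COV434 label, and whether these pairs of genes differ was not tested. The median difference was -0.39, with 48 of 51 below 0 against 48.5% of all genes tested, and 20 genes were lower and 0 higher at an unadjusted p under 0.05, against 8.44% and 9.59%. The 3 genes with a difference above 0 were CENPF at 0.28, CENPE at 0.07 and ECT2 at 0.03, none of them past either threshold.

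Single libraries moved the number of the 51 genes whose response differed. It was 0 without KGN untreated replicate 2, without KGN untreated replicate 3 or without KGN treated replicate 1. It was 2 without KGN treated replicate 2 or 3 or without COV434 treated replicate 2, 8 without COV434 untreated replicate 1 and 10 without COV434 treated replicate 1. Over all genes tested, the number lower under the KGN label moved too, from 229 of 13127 in the main fit. It was 58 of 13100, 68 of 13096 and 59 of 13060 in the settings that gave 0, in the same order. It was 72 of 13074, 106 of 13088 and 120 of 13167 in those that gave 2. In those that gave 8 and 10 it was 403 of 13139 and 427 of 13164. With the replicate number as a block within each line, 11 of the 51 genes differed, against 2.22% of all genes tested. The block was thus also applied to the KGN libraries, where same-numbered libraries did not deviate together. Those 11 were the same 4 genes with AURKB, UBE2C, SPC24, PTTG1, NCAPD2, KIF20A and CCNB2. A design of this size leaves the other genes open: the interval for CDK1, for instance, ran from -1.12 to 0.65 and that for TPX2 from -0.56 to 0.19. Both lines had an estimate below 0 in 43 genes, the fall was larger under the KGN label in 48, and over the 51 genes the 2 sets of log2 fold changes, which share no library, had a Pearson r of 0.27 as a description.

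In untreated libraries more of the genes were lower than higher under the KGN label relative to the COV434 label. Of 51 genes, 27 were lower and 3 higher (adjusted p under 0.05, limma), against 36.4% and 32.6% of the 13098 genes tested, with a median log2 difference of -0.40 against -0.02. FPKM divides the reads of a library by gene length and by 1 divisor. That divisor was 1.07 to 1.10 times the reads on genes under the KGN label and 0.911 to 0.978 times under the COV434 label. The counts moved with the scaling. They were 18 lower and 8 higher with quantile normalization, against 4152 lower and 4899 higher of all 13098 genes tested. When mitochondrial genes were left out of the scaling they were 19 and 8, against 3757 and 5500 of 13158. With voom on recovered reads they were 22 and 7, against 4046 and 5128 of 13098. With the length trend removed they were 24 and 7, against 4653 and 4562 of 13098. The median over all genes moved to 0.09, 0.21 and 0.18 in the first 3 of these settings, where that of the 51 genes was -0.06, -0.14 and -0.21. The untreated libraries of the labels did not overlap for 28 genes that were lower and 5 that were higher, against 38.8% and 35.3%. In 19 genes the call stood in every setting tried. The median level was 14.99 FPKM in untreated KGN and 23.5 FPKM in untreated COV434, where the medians of all genes tested were 5.90 and 6.99 FPKM. CDC25B had the smallest p, at 17.7 ± 1.13 FPKM under the KGN label and 60.2 ± 4.41 under the COV434 label (SD, n = 3), a difference of -1.71 (SE 0.0988, adjusted p = 7.85e-06, limma). NEK2 at -1.63 (SE 0.207), BIRC5 at -1.49 (SE 0.111), ECT2 at -1.49 (SE 0.196), FOXM1 at -1.38 (SE 0.163), MYBL2 at -1.11 (SE 0.108), AURKA at -1.09 (SE 0.0950) and PTTG1 at -1.05 (SE 0.235) were the other genes lower by more than 1 on the log2 scale.

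CDK1 went the other way from its cyclin. It measured 98.5 ± 3.46 FPKM in untreated KGN and 31.3 ± 13.9 FPKM in untreated COV434 (SD, n = 3), a log2 difference of 1.73 (SE 0.330, adjusted p = 0.00317, limma). CCNB1 measured 48.4 ± 1.495 and 67.3 ± 14.1 FPKM (SD, n = 3), a difference of -0.44 (SE 0.167, adjusted p = 0.04996, limma), and this sign did not hold under quantile normalization. BUB1B, at 14.99 ± 0.587 against 8.93 ± 0.556 FPKM, and KIF20A, at 20.6 ± 1.02 against 17.0 ± 0.747 FPKM (SD, n = 3), were the other 2 higher under the KGN label. The calls for KIF20A and CCNB1 were lost when any of the 6 untreated libraries other than COV434 replicate 1 was left out, while that for BUB1B stood in every setting. After treatment CDK1 and CKS2 were still the 2 highest of the genes in KGN, and CKS2, CCNB1 and CDC25B the 3 highest in COV434.

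**Figure D5:**
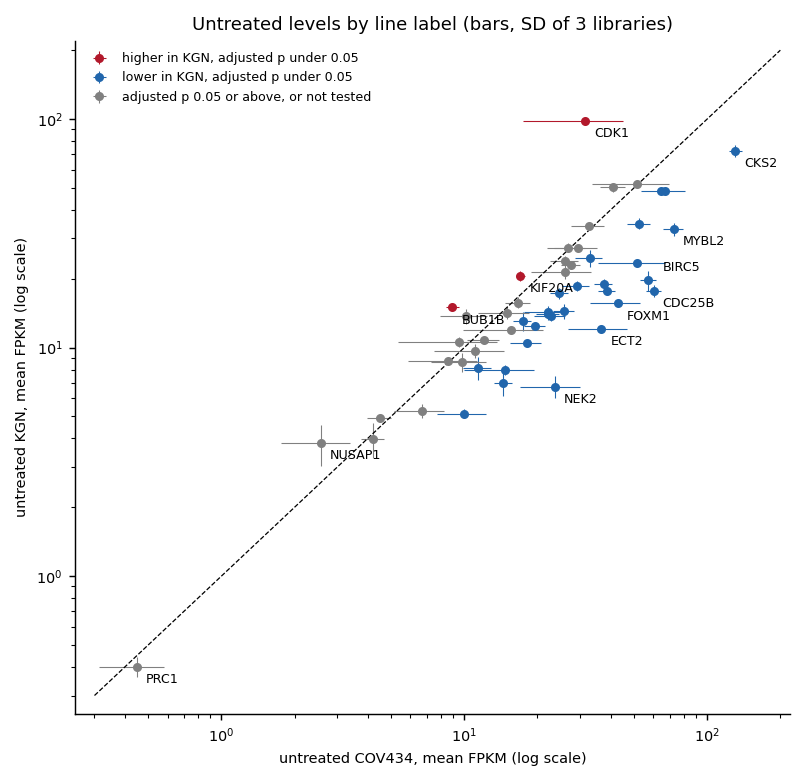
Mean FPKM of the 52 genes in untreated COV434 (horizontal) and untreated KGN (vertical), both on log axes, with the SD of 3 libraries as bars and the dashed line marking equal levels. Most coloured points lie below the line, lower under the KGN label, and CDK1 stands above it at 98.5 against 31.3 FPKM.

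Other genes of cell division were read from 8 lists, beside the 16.4% of all genes tested that fell under the KGN label and the 17.6% that rose. In the libraries labelled KGN, 37 of 40 genes of G1/S and DNA replication fell, with a median of -0.69, and 0 rose. The 4 smallest p-values among them belonged to genes of the MCM helicase that unwinds DNA, MCM5 (-1.15, SE 0.0429), MCM2 (-1.08, SE 0.0478), MCM3 (-0.92, SE 0.0419) and MCM4 (-0.97, SE 0.0442). Of 29 other kinetochore genes tested, 23 fell (median -0.39), led by ZWINT at -0.85 (SE 0.0459). Of 20 other mitotic kinesins and spindle proteins, 17 fell (median -0.47), among them RACGAP1 at -0.72 (SE 0.0391) and KIFC1 at -0.98 (SE 0.0546). Cohesin, condensin II and other chromosome proteins gave 11 lower and 1 higher of 18 (median -0.32), led by the sororin gene CDCA5 at -0.97 (SE 0.0477), and the 1 higher was PDS5A. Further regulators of G2/M entry gave 8 lower and 1 higher of 13 (median -0.35), with GTSE1 at -0.78 (SE 0.0590), and the 1 higher was GADD45A, named after its value was seen like PDS5A. Centriole duplication gave 8 lower of 11 (median -0.32), led by PLK4, the kinase that starts it, at -0.62 (SE 0.0543).

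The APC/C itself and the MuvB, DREAM and RB families were read in the same way. Of 17 genes of the APC/C and its partners under the KGN label, 5 fell and 2 rose (adjusted p under 0.05, limma), where 16.4% and 17.6% of all genes tested did, with a median of -0.08. FBXO5, its inhibitor in S and G2, fell by 0.51 (SE 0.0573), and the conjugating enzyme UBE2S by 0.53 (SE 0.0624). Among the subunits, ANAPC11 fell by 0.47 (SE 0.1002) and ANAPC4 rose by 0.23 (SE 0.0472). The other genes called, named after their values were seen, were the subunits ANAPC13, which rose by 0.33 (SE 0.0805), and ANAPC5, which fell by 0.16 (SE 0.0519), and the coactivator FZR1, which fell by 0.23 (SE 0.0620). The 2 cofactors of the APC/C among the 52 genes, CDC20 and UBE2C, fell by 0.71 and 0.74 where most of its subunits did not pass the test. In the MuvB, DREAM and RB list 4 of 11 fell and 0 rose, with a median of -0.04. These were TFDP1 at -0.42 (SE 0.0452), RBL1 at -0.38 (SE 0.0584), LIN9 at -0.49 (SE 0.102) and TFDP2 at -0.24 (SE 0.0574). Under the COV434 label 0 genes of all 8 lists passed the adjusted threshold, as for the 52.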

How the data were processed

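RNA was sequenced from 12 libraries, 3 per line label and treatment. The authors deposited 1 table of FPKM values (reads scaled by gene length and by a divisor for each library) for 58735 genes. The divisor was 1.07 to 1.10 times the reads on genes under the KGN label and 0.911 to 0.978 times under the COV434 label. Under the COV434 label it was below the reads on genes, so it cannot be taken as the number of mapped reads. How it was set is not given in the sources used here. All gene coordinates in the table matched GENCODE release 29 (GRCh38). The submitters' processing notes name HISAT2 2.0.5 and list mouse builds, although the genes are human. The counter and its strand setting are not given in the sources used here.

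Recovered reads (FPKM times gene length, divided by the value of 1 read) were whole within 0.05 for 100% of genes in every library and gave 15547851 to 18280415 reads on genes, so depth limits only the lowest genes. Floors of counts cover counting error only. The intervals come from the limma fits and, like the p-values, measure the spread between these libraries.

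Each line was fitted alone with limma 3.58.1 in R 4.3.3 on log2(FPKM + 1), with an intensity trend, two-sided, for genes with a mean of 1 FPKM or more, and p-values were adjusted by Benjamini-Hochberg over all genes tested. The difference of responses was the interaction over 12 libraries, and the untreated lines were compared by their 6 libraries. The script was tested on simulated data with the same dispersion for every gene of a line and no replicate pairing, GC or length trend. That test therefore cannot speak for libraries that show such pairing or trends. Members and lists were chosen with earlier results of these data known. All members could be named. Core regulators and the 6 members with the smallest p in each comparison were given in full, and other lists were named by up to 4 genes with the smallest p. Genes sharing exons with a member were named for that reason. Alternatives covered the pseudocount, the filter, scaling, voom on recovered reads, GC and length trends, a joint fit, the replicate block and single libraries left out. Deviations of same-numbered libraries from their group means correlated at 0.40, 0.474 and 0.166 in COV434 and at -0.016, -0.018 and -0.019 in KGN. Libraries of COV434 with unlike numbers correlated at -0.469 to 0.154. Pairing by number in COV434 was read from these values only. The main fits used no block. The replicate block was an alternative setting and was applied under both labels.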

Additional observations from a re-analysis of the deposited data

Results flagged for a closer look

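The response to 77-39 differed between the 2 line labels (interaction of line and treatment, limma over all genes tested, adjusted p under 0.05) for 4 of the 51 genes and for 11 genes of the lists written for comparison. Of all 13127 genes tested, 1.74% were lower and 1.85% higher. The 11 were 7 of 40 genes of G1/S and DNA replication, 2 of 20 other mitotic kinesins and spindle proteins and 2 of 14 further regulators of G2/M entry, all lower under the KGN label. Among the 51 they were MYBL2 (difference of log2 fold changes, KGN minus COV434, -0.76, SE 0.133, adjusted p = 0.0150), CDCA8 (-0.91, SE 0.161, adjusted p = 0.0154), PLK1 (-0.59, SE 0.119, adjusted p = 0.0242) and CDC20 (-0.71, SE 0.144, adjusted p = 0.0245). Each was called lower under the KGN label in its own fit and was not called under the COV434 label. The SEs of the interaction rest on a spread shared between the lines, so they borrow the narrower spread of KGN.

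Of the list genes named by their p under the KGN label, the replication helicase genes MCM3, MCM5 and MCM2 differed by -0.74 (SE 0.138), -0.75 (SE 0.165) and -0.95 (SE 0.225). The kinesins KIF22 and KIFC1 differed by -0.64 (SE 0.124) and -0.84 (SE 0.192), and HASPIN, a histone H3 kinase of mitosis, by -0.60 (SE 0.141). The other 5 are named after their values were seen. E2F1, a transcription factor of the G1/S transition, differed by -0.88 (SE 0.124, adjusted p = 0.00484, limma), and the replication genes GINS1, RFC2 and ORC1 by -0.67 (SE 0.136), -0.60 (SE 0.132) and -0.71 (SE 0.170). CDKN1A, which encodes the cell cycle inhibitor p21, differed by -0.62 (SE 0.114, adjusted p = 0.0183, limma) in another way: it was not called under either label, with estimates of 0.05 (SE 0.0523) under the KGN label and 0.67 (SE 0.139, unadjusted p = 0.00129, adjusted p = 0.170, limma) under the COV434 label.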

How the results depend on the processing

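The 51 genes kept a negative estimate under the KGN label in every setting. Their median log2 fold change was -0.71 with a pseudocount of 0.1, -0.63 with a filter at 0.1 FPKM or none, -0.66 with median-ratio scaling, -0.63 with quantile normalization, -0.60 without mitochondrial genes in the scaling, -0.71 with voom, -0.68 with the GC trend removed, with or without the replicate block, and -0.62 with the length trend removed. It was -0.65 to -0.61 with any 1 library left out. The joint fit of 12 libraries called 24 lower under the KGN label and 3 lower under the COV434 label. Of all 13127 genes tested it called 569 and 257 lower. At an unadjusted p under 0.05 in its own fit, 6 were lower and 1 higher under the COV434 label, against 4.49% and 3.52% of all genes tested.

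The response differed for 8 genes under quantile normalization, 2 without mitochondrial genes in the scaling, 16 with the GC trend removed and the replicate block, and 0 to 10 with 1 library left out. Over all genes tested, 305 were lower and 292 higher of 13127 under quantile normalization. Without mitochondrial genes 135 and 189 of 13215 were, and with the GC trend removed and the block 378 and 450 of 13127. With 1 library left out, 58 of 13100 to 427 of 13164 were lower. None of the 51 genes was called in every setting for this difference. In untreated libraries 8, 8, 7 and 7 genes were higher under the KGN label with quantile normalization, without mitochondrial genes, with voom and with the length trend removed. Of all genes tested, 4899, 5500, 5128 and 4562 were higher, in the same order. Under quantile normalization the untreated differences turned to 0.034 for CCNB1, 0.31 for CDCA8, 0.056 for TPX2 and 0.032 for ANLN. That of UBE2C ran from -0.25 to 0.26 with 1 library left out, the lowest without COV434 untreated replicate 1. The cause was not tested.

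With the replicate number as a block, 47 genes were lower under the KGN label, against 12.7% of all genes tested. BUB3 (adjusted p = 0.0628, limma) and CENPF (adjusted p = 0.0862, limma) were lost. Under the COV434 label 0 were called. In response 11 were lower under the KGN label, against 2.22% of all genes tested. The untreated comparison gave 25 lower and 2 higher, against 4527 and 4033 of 13098 genes tested. KGN libraries shared only a number.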
